A study of Mus musculus with 18 samples.

Results

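Peaks on genes of the small structured noncoding RNAs were examined in 18 peak lists from mouse liver. A peak was a member when it overlapped by at least 1 bp, on its own strand, a GENCODE M21 gene of type snRNA, snoRNA, scaRNA, miRNA, misc_RNA or ribozyme. The rule took 754 of 82353 peaks, of which 10 came from the MDA5-protected libraries, 29 from the RNase only libraries and 715 from the input libraries. These peaks touched 235 of the 5734 annotated genes of the 6 types.

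Total RNA came from livers of mice aged 8 to 9 days, and every library was made from Mavs-/- animals, so that both groups lack the adaptor that carries the MDA5 signal. The Mavs-/- group, titled wild-type in the labels, kept Adar, and the Adar-/-; Mavs-/- group lacked ADAR1 and is called editing-deficient here. Each genotype had 3 replicates of 3 fractions: refolded RNA digested with RNase A/T1 after incubation with recombinant MDA5 without its CARD domains (MDA5-protected), the same digestion without MDA5 (RNase only), and undigested RNA (Input RNA). The double mutants came from an intercross followed by backcrossing to Bl6J. Whole liver RNA was used, so less RNA per cell and fewer cells of a type cannot be told apart.

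Small structured RNAs fold into short stems and loops and work inside ribonucleoprotein particles. Spliceosomal snRNAs remove introns, snoRNAs guide the modification and cleavage of ribosomal RNA in the nucleolus, and scaRNAs guide the modification of snRNAs in Cajal bodies. The misc_RNA type holds 7SL (the RNA of the signal recognition particle), 7SK (an inhibitor of transcription elongation), Y RNAs, vault RNA and telomerase RNA. The ribozyme type holds the RNAs of RNase P and RNase MRP. MDA5 forms filaments along long double helices, and RNase A and T1 cut unpaired RNA, so the digested fractions are read for long helices and the input for the RNAs that were there to begin with.

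The lists held 4326 to 8948 peaks in the input, 3150 to 6094 in the RNase only and 1180 to 2868 in the MDA5-protected libraries. The study states approximate read numbers by kind of library, but how many reads lie behind a given peak is not known here. The area score of a peak (the area under its significance curve, at least 500 in every list) grows with length and with depth. Its rank or percentile within a library is therefore given first, raw areas are set between libraries only with that limit, and the order of different genes was not read as an order of RNA levels. Peaks of the digested libraries were called against the input of the same genotype. An RNA that is abundant in the input therefore needs more reads to be listed in a digested library, and a missing digested peak does not show that the RNA was digested. In the input, all 9 hepatocyte markers and 4 of 6 erythroid markers had exon peaks in all 6 libraries, 3 of 5 macrophage markers did so, and none of 4 cholangiocyte markers had one. Exon peaks on Xist were found in the 3 editing-deficient input libraries (8, 6 and 16 peaks) and in 1 of 3 Mavs-/- input libraries (0, 10 and 0 peaks).

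The sequences below show the input RNAs that the results turn on, from several kinds of particle, together with the one miRNA gene outside any other gene that was listed in both digested fractions. They were read from the GENCODE M21 transcripts (GRCm38), 5′ to 3′ on the gene's own strand. Capitals mark the bases that lay inside the peaks of every input library, or for Gm26384 of every digested library, that had a peak on the gene. Rmrp is the RNA of RNase MRP, Rnu3b3 is a U3 snoRNA gene, Rnu2-10 and Gm23971 are U2 snRNA genes of one and the same sequence, Rnu12 and Rnu11 belong to the minor spliceosome, and Rny3 is a Y RNA.
Rmrp, chr4:43492788-43493058, minus strand: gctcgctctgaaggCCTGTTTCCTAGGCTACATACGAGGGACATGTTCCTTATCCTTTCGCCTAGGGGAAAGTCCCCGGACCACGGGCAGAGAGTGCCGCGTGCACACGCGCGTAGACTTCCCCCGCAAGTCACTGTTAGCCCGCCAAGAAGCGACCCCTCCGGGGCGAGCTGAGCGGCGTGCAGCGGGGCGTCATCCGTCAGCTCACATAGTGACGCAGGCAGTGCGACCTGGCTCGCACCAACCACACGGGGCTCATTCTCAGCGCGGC
Rnu3b3, chr11:87448627-87448842, plus strand: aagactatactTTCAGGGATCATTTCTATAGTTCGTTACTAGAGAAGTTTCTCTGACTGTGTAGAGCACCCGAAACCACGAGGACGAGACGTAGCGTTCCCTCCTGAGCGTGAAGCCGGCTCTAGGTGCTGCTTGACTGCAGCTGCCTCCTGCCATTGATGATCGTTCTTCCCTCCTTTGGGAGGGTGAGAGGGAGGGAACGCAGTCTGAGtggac
Rnu2-10, chr11:101658238-101658428, plus strand: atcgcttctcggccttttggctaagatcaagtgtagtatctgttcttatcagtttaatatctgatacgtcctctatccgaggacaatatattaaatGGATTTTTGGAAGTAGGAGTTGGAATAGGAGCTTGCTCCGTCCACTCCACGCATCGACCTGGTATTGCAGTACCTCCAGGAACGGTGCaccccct
Gm23971, chr11:101645740-101645930, minus strand: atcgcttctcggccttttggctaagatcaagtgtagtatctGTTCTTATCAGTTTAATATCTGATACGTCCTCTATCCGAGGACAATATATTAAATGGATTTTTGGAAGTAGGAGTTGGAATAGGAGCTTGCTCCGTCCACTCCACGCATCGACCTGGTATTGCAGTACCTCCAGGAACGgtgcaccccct
Rnu12, chr15:83149644-83149794, plus strand: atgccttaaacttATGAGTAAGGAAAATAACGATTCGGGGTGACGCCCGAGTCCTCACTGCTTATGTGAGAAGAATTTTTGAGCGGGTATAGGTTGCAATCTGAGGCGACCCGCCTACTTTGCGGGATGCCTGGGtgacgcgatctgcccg
Rnu11, chr4:132270080-132270213, minus strand: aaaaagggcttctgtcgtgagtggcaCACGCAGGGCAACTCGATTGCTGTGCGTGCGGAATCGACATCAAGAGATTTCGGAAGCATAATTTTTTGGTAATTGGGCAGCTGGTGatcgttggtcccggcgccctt
Rny3, chr6:47781624-47781725, plus strand: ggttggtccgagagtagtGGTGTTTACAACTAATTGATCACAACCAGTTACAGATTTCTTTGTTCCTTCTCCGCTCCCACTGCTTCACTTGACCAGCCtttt
Gm26384, chr17:21284103-21284212, minus strand: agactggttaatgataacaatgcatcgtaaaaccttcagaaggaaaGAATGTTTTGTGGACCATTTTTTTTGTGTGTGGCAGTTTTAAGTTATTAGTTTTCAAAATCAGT

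The covered part differed between these RNAs. In all 6 input libraries the peaks covered 257 of 271 bases of Rmrp, 200 of 216 of Rnu3b3, 122 of 151 of Rnu12, 87 of 134 of Rnu11 and 80 of 102 of Rny3. The U2 genes Rnu2-10 and Gm23971 share their 191 bases with 4 annotated loci in all, yet 88 bases were covered in every input library at the first and 139 at the second. Reads that match several such copies cannot be told apart, so values of single U2, U3, 7SL and U6 copies are uncertain.

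The first comparison asked which fractions hold peaks on small RNA genes. Peaks on snRNA, snoRNA, scaRNA and ribozyme genes were listed in the input alone: none was among the 11501 MDA5-protected peaks, which allows a share of up to 0.0261%, or among the 30045 RNase only peaks, which allows up to 0.00999%. These limits are 3 divided by the pooled number of peaks, as a percentage, and cover counting error in the lists alone. They take each peak as independent, although the same regions recur between libraries, so they are too narrow. Members made up 1.88% ± 0.554 of the input peaks (SD, n = 6), 0.1005% ± 0.0257 of the RNase only peaks and 0.0904% ± 0.0408 of the MDA5-protected peaks. The share differed between RNase only and input libraries by -1.78 percentage points (exact permutation test within genotype, two-sided, p = 0.005, the smallest it can give), and every RNase only library lay below every input library. The MDA5-protected libraries differed from the input by -1.79 points (exact permutation test, p = 0.005). The miRNA and misc_RNA shares differed between RNase only and input by -0.531 and -0.225 points, each with an adjusted p of 0.005 in the exact permutation test, Benjamini-Hochberg over 6 classes. The other 4 classes were at 0 in every RNase only library, so their adjusted p of 0.005 restates those zeros. All of these differences include the effect of calling digested peaks against the input. The paper also states that protected RNA went through a column kit used to take out small digestion products. Median annotated gene lengths were 107 bases for snRNA, 127 for snoRNA and 136 for scaRNA genes. The part of that step in the missing digested peaks was not tested. Between MDA5-protected and RNase only libraries the share differed by -0.01003 points, less than the spread between libraries (exact permutation test, p = 0.63).

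**Figure D1:**
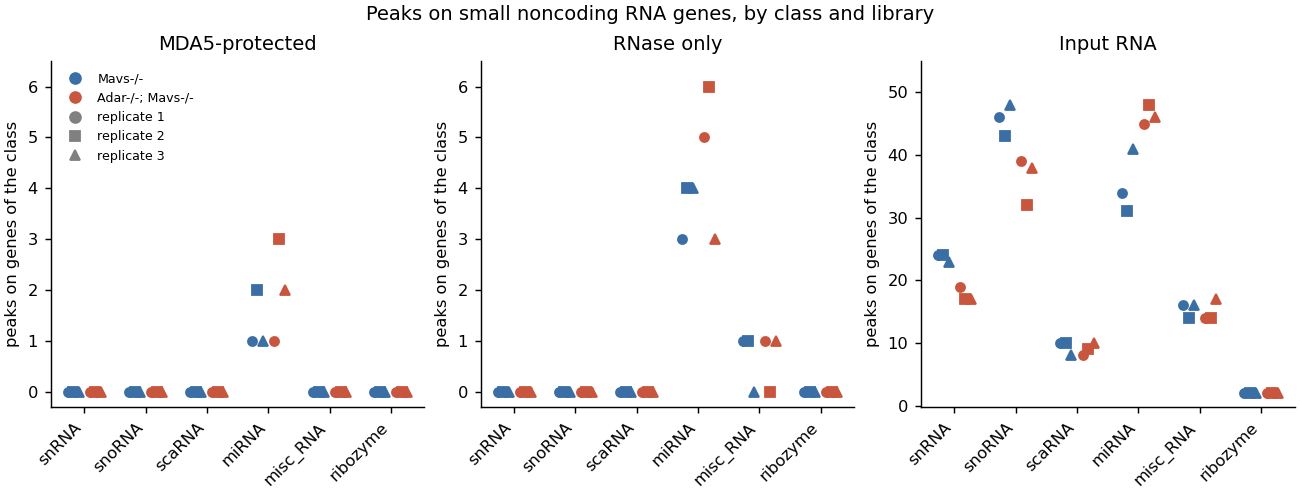
Number of peaks on genes of each RNA class in each of the 18 libraries, one panel per fraction, with colour for genotype and symbol for replicate (note the larger scale for Input RNA). In both digested fractions snRNA, snoRNA, scaRNA and ribozyme genes are at 0 in every library, while the input libraries have 17 to 24 peaks on snRNA genes and 32 to 48 on snoRNA genes.

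By area, members stood above the middle of the list in the input and RNase only libraries. Their median area percentile, where 50 is the middle of the library, averaged 73.2 over the 6 input libraries (range 68.7 to 76.3), 69.6 over the RNase only libraries (55.5 to 82.2) and 62.7 over the MDA5-protected libraries (49.8 to 81.6). The excess over 50 was 23.2 in the input and 19.6 in the RNase only libraries (exact sign-change permutation test over 6 libraries, p = 0.031 for each, the smallest possible). It was 12.7 in the MDA5-protected libraries (exact permutation test, p = 0.063), where each library had 1 to 3 members and Mavs-/- replicate 2 lay at 49.8. That value turned to -4.39 when peaks were ranked by area per base. For peaks with at least 50% of their bases inside the gene it was -45.1, which rests on 1 peak, on Gm26384, in editing-deficient replicate 2 alone. The RNase only value lost its call under 7 of the other settings tried, with values from 1.95 to 25.5. With at least 50% of the peak inside the gene, or without peaks on exons of other gene types, some RNase only libraries had no member. With so few libraries the test could not reach 0.05, so the call was bound to be lost in these settings.

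Of the 39 members in the digested libraries, 35 lay on miRNA annotations and 4 on misc_RNA annotations. They touched 13 genes. For 33 of them the peak overlapped an exon of a gene of another type, and 30 had less than 50% of their bases inside the small RNA gene. Mir147 and Gm24970 accounted for 19 of the 39. No MDA5-protected region on a small RNA gene was held by all 6 libraries (0 of 3, against 6.79% of all MDA5-protected regions), and 2 of 13 RNase only regions were (3.49% of all RNase only regions). A region joins overlapping peaks of several libraries, and in 1 of these 2, on Cnnm4, the peak of 1 library alone reached the small RNA gene. The other was Mir147. None of these regions was held by 3 of 3 libraries of one genotype and 0 of 3 of the other. Over all regions that was the case in favour of the editing-deficient group for 2.96% of MDA5-protected and 1.73% of RNase only regions, and in favour of Mavs-/- for 0.818% and 0.288%.

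Mir147, at chr2:122640803-122640881 on the plus strand, lies in an untranslated exon part of AA467197. A mature form from its 5p arm, printed with the seed (bases 2 to 8) in capitals, is listed by RefSeq (GRCm38.p6) at chr2:122640814-122640837.
mmu-miR-147-5p: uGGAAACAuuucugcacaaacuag

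The peak over Mir147 spanned 207 to 592 bases and always held all 79 bases of the hairpin, together with flanking exon of AA467197. In the RNase only libraries its area percentile was 98.7, 98.3 and 97.97 in Mavs-/- and 97.6, 98.5 and 98.2 in the editing-deficient replicates. In the MDA5-protected libraries it was 63.6 and 43.3 in Mavs-/- replicates 1 and 2, with no peak listed in replicate 3, and 58.4, 89.3 and 90.3 in the editing-deficient replicates. The 6 RNase only values lay above all MDA5-protected values, and no input library listed a peak there. Because the peak was much longer than the hairpin, the signal cannot be assigned to the miRNA precursor rather than to its host transcript.

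Gm24970, a predicted miRNA gene inside an exon of the antisense gene AC166172.4, had peaks in 4 MDA5-protected and 4 RNase only libraries. Its percentiles ran from 55.2 to 79.4, and 15 to 77 of its 82 bases lay under the peak. Gm26384, shown above, had RNase only peaks in Mavs-/- replicates 1 (percentile 74.1) and 2 (40.6) and in editing-deficient replicate 2 (87.6), and an MDA5-protected peak in editing-deficient replicate 2 (4.88). It was in no other gene, and 55.2% to 59.1% of each peak lay inside it. Whether other loci share the sequence of Gm26384 was not tested, so its peaks cannot be assigned to this locus alone. The 10 other genes were listed in RNase only libraries, in 1 to 3 of 6 each. Gm26377, in an untranslated part of the elongation factor gene Eef1a1, had percentiles of 20.9, 96.8 and 79.4 in 3 of them, and Gm27543, in Hoxa11os, had 57.6, 93.0 and 55.7. The peaks over Mir7678 in Slpi, Mir3076 in Tkt and Mir6969 in Clps entered the miRNA annotation by 2 to 6 bases. Rab11a (Gm47308), Cnnm4 (Gm47280), Adgrb1 (Gm26117), Mir684-1 and the 7SL-related Gm22567 had 1 peak each. These 13 genes hold no snRNA, snoRNA, scaRNA or ribozyme gene.

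**Figure D2:**
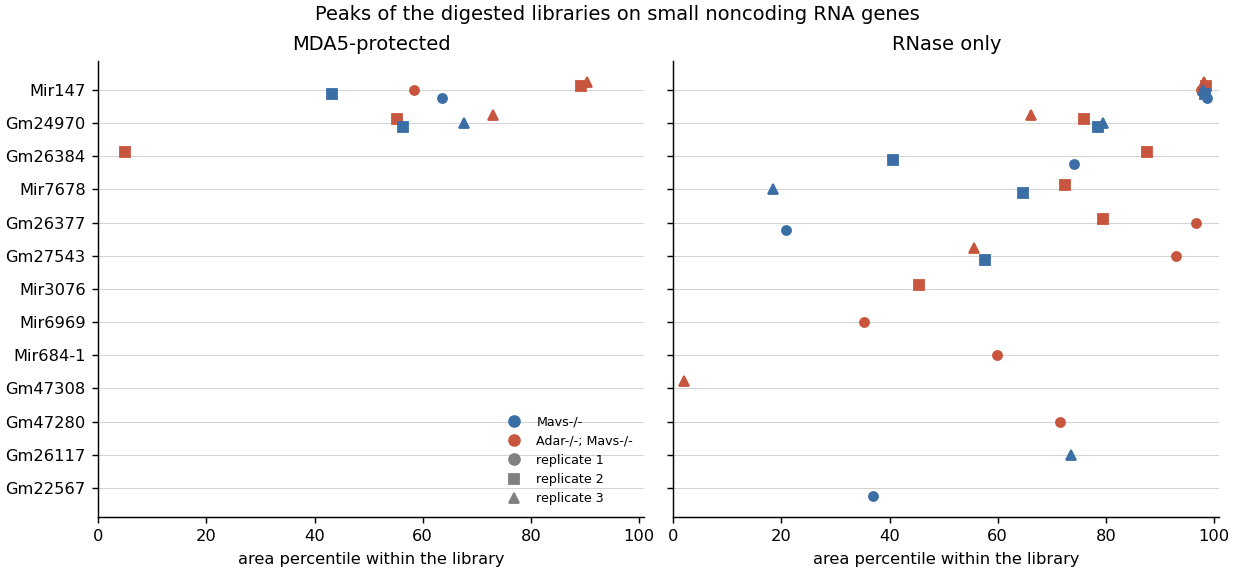
Area percentile (0 to 100, within the library) of every digested peak on a small RNA gene, one row per gene, with MDA5-protected libraries on the left and RNase only on the right. Colour gives the genotype and symbol the replicate. Mir147 sits between 97.6 and 98.7 in all 6 RNase only libraries, and 10 of the 13 genes have no MDA5-protected peak.

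In the input, 25 of 1385 snRNA genes had a peak, and 17 of them had one in all 6 libraries. Of these input peaks, 99.2% had at least 50% of their bases inside the gene and 4.84% lay on an exon of another gene type. By their closest named relative, 11 of the 25 were U2 genes (8 in all 6 libraries), 4 were U5-related, and 2 each were related to U12, U1 and U6. Gm23971 stood highest among them, with a mean percentile of 93.2, and Gm24265, which had no named gene within 30% of its sequence, had 92.3. Rnu12 averaged 78.7 and Rnu11 57.6. The named U1, U5, U6 and U7 genes (Rnu1a1, Rnu5g, Rnu6 and Rnu7) had no peak, although the U1-related Gm22513, which differs from Rnu1a1 by 1 base, averaged 84.4 over all 6 libraries.

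Among snoRNA genes, 79 of 1507 had an input peak and 28 had one in all 6 libraries. By symbol, 21 of 42 Snora genes (box H/ACA, which guide pseudouridylation) and 18 of 99 Snord genes (box C/D, which guide 2′-O-methylation) did. Among the U3 genes, whose RNA is needed for the first cleavages of the ribosomal precursor, Rnu3b3 averaged 96.6, Rnu3b1 95.5 and Rnu3a 87.6, while the copy Rnu3b4 was listed in 2 Mavs-/- libraries at 9.45 and 0.16. Snord17 averaged 91.4, Snora73b 90.2 and Snora73a 86.3, and Snord118, the U8 snoRNA, averaged 68.0 in 5 libraries. On snoRNA genes 65.0% of input peaks lay on an exon of another gene type, as with Snora73a and Snora73b inside Snhg3, where host and snoRNA reads cannot be told apart. Of 51 scaRNA genes 13 had an input peak, 7 of them in all 6 libraries, led by Scarna2 (95.1). Scarna10, typed as a snoRNA gene in this annotation, averaged 89.2 and Scarna13 60.7.

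Of 562 misc_RNA genes 24 had an input peak and 9 had one in all 6 libraries. The 7SL genes were near the top of every input list, with mean percentiles of 99.6 for Rn7s2, 99.4 for Rn7s1 and 98.7 for Rn7s6. Rn7sk itself had no listed peak, while Gm24447, Gm26315 and Gm26035, which share 82.2% to 84.0% of its sequence, averaged 98.8, 98.5 and 94.1 in all 6 libraries. The vault RNA gene Vaultrc5 averaged 77.4. Of the Y RNAs, Rny3 averaged 55.3 in 6 libraries and Rny1 39.4 in 5, and the telomerase RNA Terc was listed in 2 Mavs-/- libraries with a mean of 16.8. Both ribozyme genes that had peaks had them in all 6 input libraries: Rpph1, the RNase P RNA, averaged 99.1 and Rmrp 98.04. Of the 32 well-known RNAs listed for this comparison 30 were annotated, 22 had an input peak, 18 had one in all 6 libraries and 0 had a digested peak.

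The miRNA class behaved differently. It had an input peak on 81 of 2207 genes, but 85.7% of those peaks lay on exons of other gene types and 9.39% had at least 50% of their bases inside the miRNA gene. Mir675, inside the long noncoding RNA H19, averaged a percentile of 99.9 from a peak with a median length of 2563 bases against 84 bases of hairpin. The liver miRNA Mir122 was listed in 1 editing-deficient library, and Mir192, Mir194-2 and Mir21a in none. In the same way the misc_RNA entry Gm27694 averaged 99.9 from a peak of 5203 bases on Malat1. Mature miRNAs are far shorter than the reads of 75 bases and were not measured here.

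**Figure D3:**
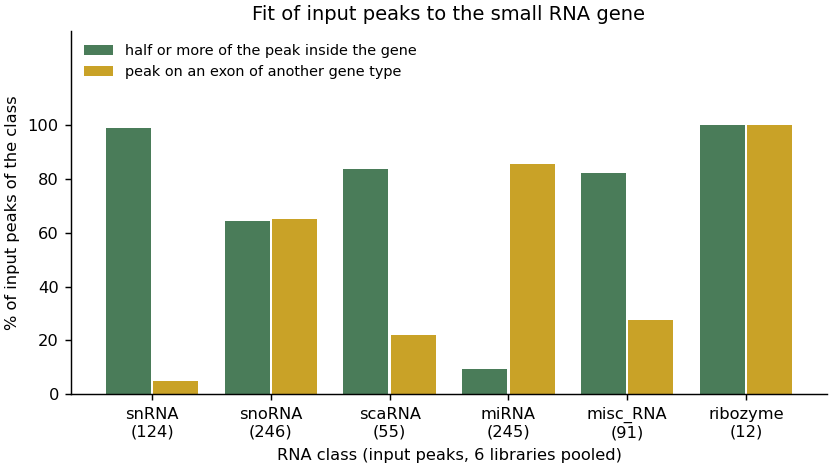
For each RNA class, the percentage of its input peaks (6 libraries pooled, number in parentheses) with at least 50% of their bases inside the gene (green) and the percentage that overlap an exon of another gene type (yellow); the axis starts at 0. snRNA peaks stand at 99.2% and 4.84%, miRNA peaks at 9.39% and 85.7%.

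Length and predicted folding went along with input peaks. Outside the miRNA class, 2.49% to 3.01% of genes of up to 150 bases had an input peak, against 7.55% to 8.94% of longer ones. Transcript sequences of the gene's length were found for 5727 of the 5734 genes and for all 235 with a peak. The median minimum free energy predicted by RNAfold was -30.8 kcal/mol per 100 nucleotides for snRNA genes with an input peak and -20.5 for those without, and -34.7 and -26.4 for snoRNA genes. For miRNA genes it was -35.2 with and -37.0 without. Genes of one family share sequence, and lower energy goes with GC content (medians 45.6% and 42.1% for snRNA genes with and without a peak), so these are descriptions without a test. Despite these predicted stems, none of the snRNA or snoRNA genes was listed in a digested library.

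The second comparison asked whether loss of ADAR1 changed the input peaks on small RNA genes. The Mavs-/- input libraries had 121, 114 and 129 members among 5049, 4326 and 6625 peaks, and the editing-deficient ones 118, 113 and 120 among 6991, 8868 and 8948. The counts overlap (exact permutation test, two-sided, p = 0.4). The share was 2.33% ± 0.349 in Mavs-/- and 1.43% ± 0.222 in editing-deficient libraries (SD, n = 3 each), a difference of -0.892 points, with no overlap between genotypes (exact permutation test, p = 0.1, the smallest that 3 against 3 allows). The denominator also differed, since the editing-deficient input lists were longer. With every input list cut to its 4326 largest peaks by area, the genotypes lay closer together, still without overlap. The shares were then 2.45%, 2.64% and 2.31% in Mavs-/- and 2.10%, 1.80% and 1.99% in editing-deficient libraries. In the digested fractions the genotypes did not differ beyond the spread: the MDA5-protected share was 0.1011% ± 0.0564 in Mavs-/- and 0.0797% ± 0.0252 in editing-deficient libraries (SD, n = 3 each, exact permutation test, p = 0.7). The RNase only share was 0.1098% ± 0.0330 in Mavs-/- and 0.0911% ± 0.0173 in editing-deficient libraries (exact permutation test, p = 0.4).

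For the class counts between genotypes, the exact permutation test of 3 against 3 libraries cannot go below p = 0.1. It could therefore call no class, whatever the counts. Peaks on snRNA genes numbered 24, 24 and 23 in the Mavs-/- and 19, 17 and 17 in the editing-deficient input libraries, and peaks on snoRNA genes 46, 43 and 48 against 39, 32 and 38. Peaks on miRNA genes numbered 34, 31 and 41 against 45, 48 and 46, a mean difference of 11 that became -2.33 for peaks with at least 50% of their bases inside the gene. In each of these 3 classes the genotypes did not overlap, and each contrast reached p = 0.1 with an adjusted p of 0.2 in the exact permutation test over 6 classes. The scaRNA, misc_RNA and ribozyme counts differed by 0 to 0.333 peaks.

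Among the 2411 input regions held by all 6 libraries, 81 were on small RNA genes. That is 42.6% of the 190 input regions on small RNA genes, against 18.3% of all input regions. Of the 81, 49 (60.5%) had a lower area rank, counted from the top of the list, in every editing-deficient library than in any Mavs-/- library, against 29.4% of all 2411. A higher rank in every editing-deficient library was found for 2 of the 81 (2.47%, against 10.3%). All 17 snRNA regions were among the 49, as were both ribozyme regions, 8 of 9 misc_RNA and 16 of 30 snoRNA regions, 3 of 7 scaRNA and 9 of 26 miRNA regions. Regions holding genes of several types are counted under each. Of the 17 snRNA regions 8 were U2 genes and 3 were U5-related. Rn7s1 and Rn7s2 are identical in sequence, as are Rnu3b1 and Rnu3b3. Reads that match several such copies cannot be told apart, so these regions are not independent. The counts therefore overstate the number of separate RNAs. Of the 37 regions free of exons of other gene types 32 ranked lower, and of the 44 others 17 did. The 2 regions that ranked higher were Mir682, in the pseudogene Gm4149, and Mir7088, in the liver-secreted growth factor gene Mst1.

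Raw areas, which depend on depth, were compared as well. Peak area was lower in every editing-deficient library in 33 of the 81 regions (40.7%, against 7.22% of all) and higher in 9 (11.1%, against 33.7%). By area percentile 35 were lower (43.2%, against 6.43%) and 8 higher (9.88%, against 27.4%). By rank of area per base of peak, 24 were lower (29.6%, against 17.2%) and 6 higher (7.41%, against 8.75%), and by rank of the −log10 p-value 36 were lower (44.4%, against 19.3%) and 6 higher (7.41%, against 15.3%). With each input library left out in turn, 50 to 55 of the 81 (61.7% to 67.9%) ranked lower, against 33.2% to 38.4% of all 2411. Leaving out a library can only keep or add such regions, so these counts could not fall and do not test the result.

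**Figure D4:**
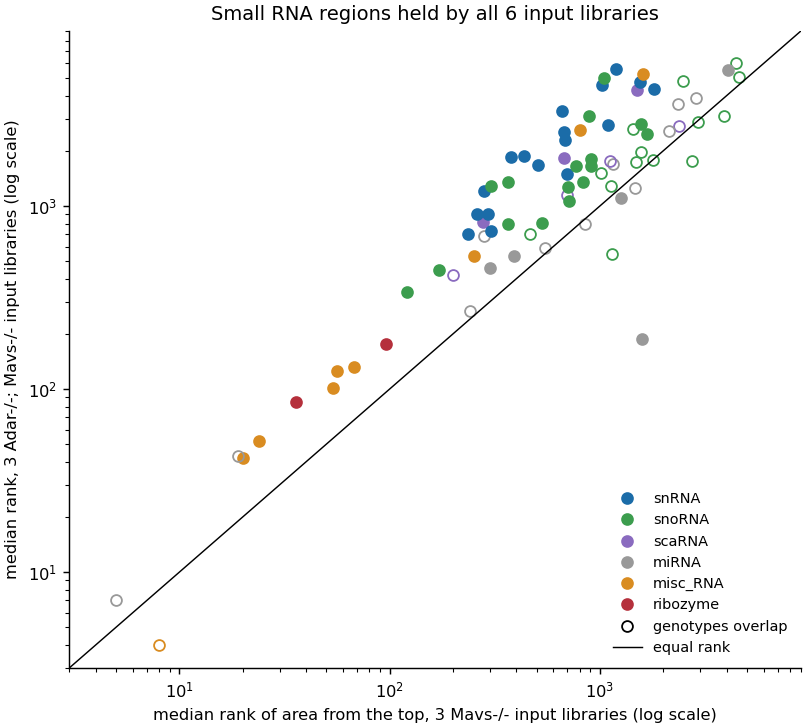
Median rank of area from the top (1 is the largest peak; log scales) of the 81 small RNA regions held by all 6 input libraries, Mavs-/- on the horizontal and editing-deficient on the vertical axis. Filled points are regions whose genotypes do not overlap; points above the line rank lower in the editing-deficient libraries, which holds for 49 regions, all 17 snRNA regions among them.

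Single RNAs show the size of the difference. The U2 gene Gm23971 had areas of 3151.9, 3505.5 and 2859.0 in the Mavs-/- and 2271.5, 2217.0 and 2292.9 in the editing-deficient input libraries, with ranks of 237, 191 and 358 against 707, 752 and 707. The groups did not overlap on either scale. Rnu12, of the minor spliceosome, had areas of 1734.9, 1932.0 and 1523.7 against 1205.4, 1094.6 and 1083.7, and Rnu11, which works beside it, 977.7, 1174.9 and 999.5 against 781.9, 745.3 and 792.6. Both were lower in every editing-deficient library.

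The U3 gene Rnu3b3 had areas of 4442.7, 4557.0 and 4078.2 in Mavs-/- and 3572.4, 3211.7 and 3336.6 in editing-deficient libraries. Scarna10 had 2737.4, 2901.8 and 2324.1 against 1787.2, 1659.2 and 1634.2. Here too the genotypes were apart. Snora73b, in an exon of Snhg3, had areas of 2009.4, 2177.1 and 2020.9 against 2104.2, 2136.9 and 2322.7, which overlap, although its ranks (533, 440 and 671 against 808, 807 and 685) did not.

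Rny3 had areas of 1061.0, 1245.8 and 1095.9 in Mavs-/- and 617.3, 681.5 and 828.5 in editing-deficient libraries, with ranks of 1607, 1139 and 1900 against 5255, 5499 and 3985. The 7SL and RNase P genes lay closer together. Rn7s1 had areas of 10876.8, 11459.9 and 9803.5 against 9973.9, 9278.2 and 9294.5, where 1 editing-deficient library exceeded 1 Mavs-/- library. Rpph1 had 8065.9, 9221.9 and 7552.0 against 7213.6, 7033.5 and 7355.1, without overlap. Other named genes had higher areas in the editing-deficient libraries. Scarna13 had 825.7, 891.7 and 806.2 in Mavs-/- and 970.6, 994.1 and 1166.9 in editing-deficient libraries, without overlap, although its ranks overlapped. The ratio of mean areas, editing-deficient to Mavs-/-, was 1.03 for Snora73a, 1.19 for Mir675 and 1.5 for Gm27694, and the areas of these 3 overlapped between genotypes.

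**Figure D5:**
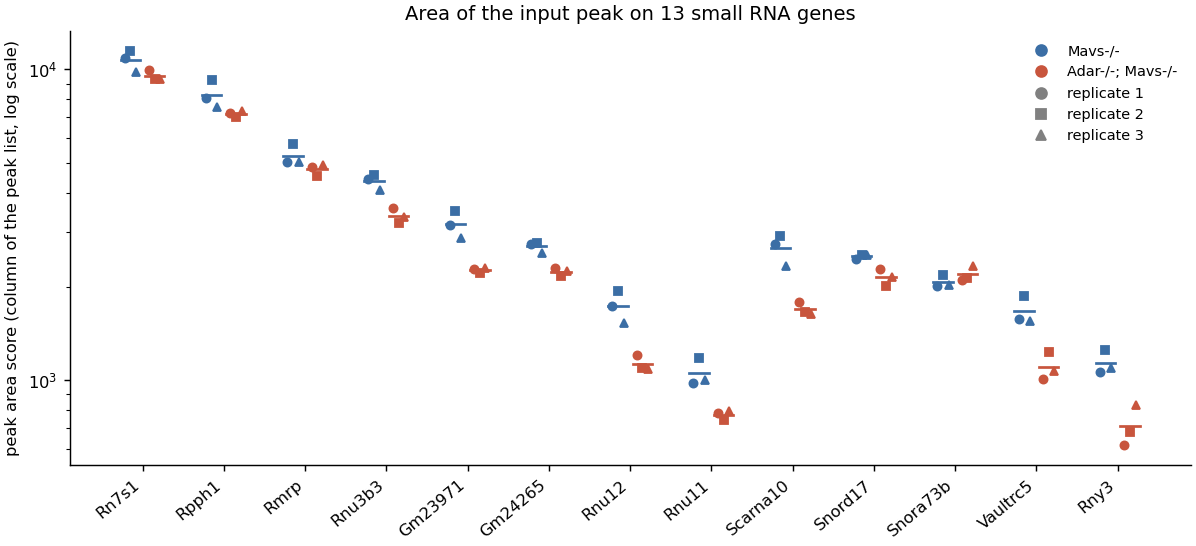
Area score (log scale) of the input peak on 13 small RNA genes in each library; points are replicates, lines the mean of 3, and colour gives the genotype. Gm23971, Gm24265, Rnu12, Rnu11, Rnu3b3, Scarna10, Snord17, Rpph1, Vaultrc5 and Rny3 are lower in every editing-deficient library, and Rn7s1 and Snora73b overlap.

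Summed over the class, snRNA peaks had an area of 39511, 44159 and 35546 in the Mavs-/- and 24777, 21837 and 23156 in the editing-deficient input libraries. They covered 2852 to 3334 bases against 2084 to 2261, at a mean area per base of 12.32 to 13.25 against 10.48 to 11.04. Markers of red blood cell precursors moved the same way. The summed area on the 6 erythroid marker genes was 36549 to 65539 in Mavs-/- and 14999 to 27399 in editing-deficient libraries, with Alas2 listed in 3 of 3 Mavs-/- and 0 of 3 editing-deficient libraries. The hepatocyte markers were at 329447 to 332647 against 337520 to 377337 and the macrophage markers at 4423.5 to 7144.4 against 5652.3 to 6360.4. As a percentage of the area of the library, snRNA peaks held 0.448% to 0.788% against 0.204% to 0.266%, and erythroid markers 0.652% to 0.826% against 0.140% to 0.294%. On that scale the hepatocyte markers, at 4.19% to 5.88% against 3.15% to 4.05%, and the macrophage markers, at 0.079% to 0.090% against 0.053% to 0.063%, were also lower in every editing-deficient library. The endothelial markers were at 0 to 2340.9 against 2049.1 to 4848.6, and the cholangiocyte markers at 0 throughout. The part of the erythroid markers in the difference was not tested. The snRNA area of the Mavs-/- library with Xist peaks, replicate 2, was the 44159 given above, and the part of Xist was not tested.

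Few small RNA regions were listed in one genotype alone. Of 190 input regions 7 (3.68%) were held by 3 of 3 editing-deficient and 0 of 3 Mavs-/- libraries, against 5.4% of all input regions, and 5 (2.63%) the other way, against 0.865%. The Mavs-/- set was the U2-related Gm22973 and Gm25813, the snRNA gene Gm25541, Snora17 and Gm47302 in Col3a1. Their percentiles included 63.3, 70.7 and 55.8 for Gm22973 and 7.05, 2.98 and 24.5 for Snora17. The editing-deficient set was Snord49b, Scarna17, Gm24865 in Gm4613, Gm27622 in the cytochrome gene Cyp2d9, Gm27517 in Tug1, Mir5125 and Gm27927, which lies in Xist. Gm27927 goes with the Xist peaks given above, which were absent from 2 of 3 Mavs-/- libraries, and their part in this result was not tested.

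Host genes and protein partners of these RNAs were looked at in the same lists. Of 12 annotated snoRNA host genes 7 had input exon peaks, with Snhg1, Snhg3 and Snhg20 in all 6 libraries, and 0 had a digested peak. Of 18 annotated genes for proteins of these particles 6 had input peaks, 0 of them in all 6 libraries, 7 had RNase only peaks and 0 had MDA5-protected peaks. Shares over all annotated genes are not given here, so these counts do not set the 2 lists apart from other genes. Nhp2, a core protein of H/ACA particles, had an RNase only peak in 3 of 3 editing-deficient and 0 of 3 Mavs-/- libraries. It was 1 of 18 genes looked at. The same pattern held for 1.73% of all RNase only regions, which is a share of regions and not of genes.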

How the data were processed

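RNA of 18 liver libraries (2 genotypes, 3 fractions, 3 replicates) was sequenced by the authors, after rRNA depletion, as directional single-end reads of 75 bases. Reads were trimmed with Trim Galore 0.6.6 and aligned with NextGenMap to mm10, and peaks were called by strand with Genrich 0.6.1 (adjusted p at most 0.01, area at least 500, gaps up to 20 bp), leaving out blacklisted and rRNA regions. Digested libraries were called against the input of their genotype and inputs without a control. The deposited lists give the area as a score per peak and, per the authors, its p-value as −log10. The lists hold no read counts, so precision was taken from the spread of libraries alone. The labels title one genotype wild-type and list it as Mavs-/-, and the latter was used.

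Peaks were intersected with GENCODE M21 genes in Python 3.11.15 with pandas 2.3.3 and numpy 2.4.6. Peaks of a fraction that overlapped on a strand were merged into regions. Shares, counts and median percentiles were compared by two-sided exact permutation tests written for this purpose, within genotype for fractions, with Benjamini-Hochberg adjustment over classes. The tests were tested on simulated data, and all but the within-genotype test were checked there against scipy 1.17.1. Folding energies came from RNAfold 2.7.2. Named genes were up to 30 with a peak in at least 6 of 18 libraries, the well-known RNAs, per class and fraction the 2 highest by mean percentile among genes in at least 4 libraries, and regions held by 3 of 3 libraries of one genotype and 0 of the other. Gm22513, Mir682, Mir7088 and the digested genes outside this rule were named after their values were seen. Members and lists were chosen with earlier results of these data known, and replicates are biological triplicates per the authors, though the labels do not tie a library to an animal. Alternatives covered the overlap, strand, minimum area, list length, ranking, each library left out and a replicate block. The sequence of 1 RNA is not reported here.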

Additional observations from a re-analysis of the deposited data

How the results depend on the processing

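The lower share of small RNA peaks in both digested fractions than in the input, and in each class for RNase only, kept direction and call under every setting run that gave a value. Without peaks on exons of other gene types no ribozyme peak was left in any library, so that class had no value there. With at least 50% of the peak inside the gene, the values that moved were the MDA5-protected share between genotypes (editing-deficient minus Mavs-/-, as for all genotype differences here) at 0.0120 points, the percentile excess over 50 at -45.1 for MDA5-protected and 1.95 for RNase only, the input percentile between genotypes at -2.97, the miRNA share of MDA5-protected minus RNase only at -0.0156, the editing-deficient input regions at 2 and the miRNA count between genotypes at -2.33. With at least 10 bp of overlap, the share of MDA5-protected minus RNase only was 0.00796. With strands ignored, these were 0.0227 for the MDA5-protected share, 15.6 for the RNase only excess, -2.42, -0.933 and -3.14 for the percentile between genotypes in MDA5-protected, RNase only and input, -0.0308 for the miRNA share, 1 editing-deficient MDA5-protected region and 11 Mavs-/- input regions. Without peaks on exons of other gene types, they were 0.0120 for the MDA5-protected share, -0.333 for both the RNase only count and genes, -45.1 and 10.9 for the MDA5-protected and RNase only excess, -3.21 for the input percentile, -0.00694 for the miRNA share, 2 editing-deficient input regions and 0.333 for the scaRNA count. In both settings the MDA5-protected values of 0.0120 and -45.1 rest on the same 1 peak of 1 library. With a minimum area of 1000, they were 0.0974 and 0.0310 for the MDA5-protected and RNase only share, 25.5 for the RNase only excess, -8.36 and -2.21 for the RNase only and input percentile, -0.103 for the miRNA share and 2 regions. With equal numbers of peaks per library, they were 0.0212 for the RNase only share, 16.1 for its excess, -7.55 and -7.49 for the RNase only and input percentile and 1 region. Ranking by −log10 p gave 20.05 for the RNase only excess and -16.4 and -1.27 for the RNase only and input percentile. Ranking by area per base gave -4.39 and 8.98 for the MDA5-protected and RNase only excess, -10.2 and -1.56 for the percentiles, and 24 lower regions. The cause was not tested.

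Leaving out each library in turn gave an excess of 17.0 to 22.4 for RNase only and 22.6 to 24.1 for input, where 5 libraries cannot go below 0.063 in the exact permutation test. The percentile between genotypes ran from -3.56 to 9.64 in MDA5-protected and -1.05 to 3.24 in input, the share of MDA5-protected minus RNase only from -0.0257 to 0.00158, its miRNA part from -0.0125 to 0.0148 and its misc_RNA part from -0.0169 to -0.0103, and the MDA5-protected share between genotypes from -0.0446 to 0.01004. The misc_RNA count ran from -1.33 to 0.167 and the scaRNA count from -1 to 0.167. Regions listed in one genotype numbered 5 to 11 for Mavs-/- and 7 to 11 for editing-deficient input. Mavs-/- regions rose from 5 to 9, 10 and 11 without Mavs-/- input replicate 1, 2 and 3 and to 8 without editing-deficient replicate 1, which also took the editing-deficient regions from 7 to 11. Leaving out a library loosens the rule, since fewer libraries must hold or lack a peak, and this by itself can raise the counts. The share over all input regions is not given for these settings, so the rises do not single out a replicate.

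Same-numbered samples of the 2 genotypes did not deviate together (correlations from -0.082 to 0.02), so the numbers were not taken to pair them. Within a genotype, same-numbered MDA5-protected and RNase only libraries had correlations of 0.088 to 0.169. The main tests between these fractions did not pair them. With a replicate block the input share differed between genotypes by -0.892 points with p = 0.25, the smallest possible, and RNase only from input by -1.78 points with p = 0.031 (exact permutation tests). The block changed no call.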

Other observations

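On the strand opposite to a small RNA gene, 3 MDA5-protected, 12 RNase only and 105 input peaks were found. The 3 MDA5-protected ones lay opposite Gm24597.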
